A study of Mus musculus with 8 samples.

Results

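The 4 mature miRNAs mmu-miR-155-5p, mmu-miR-155-3p, mmu-miR-146a-5p and mmu-miR-146b-5p, which are linked to inflammation, were followed across 3A hepatocytes and their extracellular vesicles (EVs). They were taken by name from the deposited table, where they are 4 of 1978 mouse rows. Of these 4, 3 had at least 1 read in at least 2 cell and 2 EV libraries and could be tested for their distribution between cells and EVs, among 180 such miRNAs, while miR-155-3p had no EV read. 3A is a non-tumorigenic line of murine hepatocytes, grown in medium with 10% fetal bovine serum, epidermal growth factor, insulin-like growth factor II and insulin. Cells of all conditions had been infected with a pSUPER retro puro retrovirus and selected with puromycin at 2 µg/mL. The shCTR cells carried a scrambled shRNA and the shPCBP2 cells an shRNA that targets PCBP2, a protein that binds C-rich RNA. EVs were collected from medium conditioned for 72 h, with serum depleted of EVs. Cells and EVs of both shRNAs made 4 conditions with 2 biological replicates in each, with control standing for shCTR and silenced for shPCBP2 below, so that silenced EVs are those released by silenced cells. Every sample received cel-miR-39, a miRNA of the nematode C. elegans, as a spike-in. The comparisons address whether silencing of PCBP2 changes how each miRNA is divided between the cell and its EVs. The extent of the silencing could not be checked, because these libraries hold no PCBP2 mRNA.

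miR-155 is cut from the transcript of Mir155hg, a gene switched on by NF-kB and AP-1 when immune and other cells meet inflammatory stimuli, and its 5p strand represses inhibitors of cytokine signalling such as Socs1 and Inpp5d. The 3p strand comes from the opposite arm of the same hairpin and is normally the rarer product. miR-146a and miR-146b are made from different genes, and both repress Traf6 and Irak1, adaptors that carry the signal of Toll-like and interleukin-1 receptors to NF-kB, so they are known as brakes on that pathway.

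The mature sequences, from RefSeq on GRCm38.p6, are shown because the seed decides which targets a miRNA pairs with and because the miR-146 pair is told apart by few bases. Capitals mark the seed, bases 2 to 8 from the 5′ end.
miR-155-5p: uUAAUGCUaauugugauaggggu
miR-155-3p: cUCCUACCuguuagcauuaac
miR-146a-5p: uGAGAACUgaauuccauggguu
miR-146b-5p: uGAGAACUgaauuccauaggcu

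Both arms of miR-155 lie on the plus strand of chromosome 16, the 5p arm at chr16:84714143-84714165 and the 3p arm at chr16:84714182-84714202, within an exon of the long non-coding RNA Mir155hg. miR-146a-5p lies on the minus strand at chr11:43374435-43374456, where no other gene is annotated. miR-146b-5p lies on the plus strand at chr19:46342790-46342811, within an intron of the protein-coding gene Mfsd13a. The miR-155 arms have different seeds, whereas miR-146a-5p and miR-146b-5p have the same seed and 20 of 22 identical bases. Counted from the 5′ end, with the base of miR-146a-5p first, they differ by G18A and U21C. These positions are shown in capitals below.
miR-146a-5p: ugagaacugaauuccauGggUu
miR-146b-5p: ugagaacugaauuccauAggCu

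The study connects intracellular retention with a motif called CELL, whose core was searched here as AUUA or AUUG on the given strand, and EV loading with a degenerate motif called hEXO, of which only the letters GGCU were searched here. The study places both motifs in both arms of miR-155, so a miRNA without GGCU can still hold hEXO. miR-155-3p holds AUUA from base 16, miR-155-5p holds AUUG from base 10, miR-146b-5p holds GGCU from base 19, and miR-146a-5p holds none of these letters. The matches are in capitals.
miR-155-3p: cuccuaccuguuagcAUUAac
miR-155-5p: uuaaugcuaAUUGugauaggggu
miR-146b-5p: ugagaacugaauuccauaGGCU

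Among 1679 mature mouse miRNAs with a sequence, AUUA was found in 2.50%, AUUG in 6.79% and GGCU in 13.3%. Of the 180 miRNAs tested for the distribution between cells and EVs, 156 had a sequence, of which 0 hold AUUA, 16.0% hold AUUG and 15.4% hold GGCU. The other 24 tested miRNAs, among them miR-421-3p, which the study lists with a core CELL motif, were not matched and not searched. These matches are letters in a sequence, and binding to them was not measured in these libraries.

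The libraries held between 26391248 and 38166798 reads. Mouse miRNAs took 8745848 to 12732173 reads in cell libraries and only 503070 to 687592 in EV libraries, where the spike-in took 97.6% to 98.4% of all reads. Levels are given as reads per 1000000 spike-in reads, a quantity that scales with the miRNA in the sample, or as counts per 1000000 mouse miRNA reads (CPM), a share of the miRNA in the sample. The amount of cells or medium that each sample stood for is not given in the sources used here. Fewer cells or vesicles and less miRNA in each of them therefore cannot be told apart. The study counted EVs per cell and reports no effect of PCBP2 silencing on EV production. That count does not give the amount that each library stood for. The hepatocyte list of miR-122-5p, miR-192-5p and miR-194-5p summed to 24053 to 28565 CPM in cells and 8662 to 11830 CPM in EVs. Its members differed. miR-194-5p had 218474 to 342726 reads in cell libraries and 3784 to 5454 in EV libraries, and miR-192-5p 10976 to 20510 and 0 to 1058. miR-122-5p, the dominant miRNA of liver, had only 356 to 485 reads in cell libraries against 795 to 2327 in the far shallower EV libraries. Markers of other sources took a larger share in EVs. The leukocyte list of 4 miRNAs summed to 1.11 to 7.07 CPM in cells and 13738 to 17023 CPM in EVs, and the blood and serum list of 3 to 6.73 to 15.2 CPM and 51471 to 61379 CPM. miR-142a-3p, a leukocyte miRNA, and the erythroid miR-144-3p had 0 reads in each cell library and reads in each EV library. The endothelial list of 2 summed to 174 to 228 CPM in cells and 4891 to 8805 CPM in EVs, and the mesenchymal list of 3 to 13.0 to 28.0 CPM and 3317 to 6697 CPM. miR-155 and miR-146 are also expressed by leukocytes, so these values stand beside each EV result below, and their part in it was not tested.

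miR-155-5p was by far the most abundant of the 4. It had 9294 and 10334 reads in the libraries of control cells, 6463 and 7865 in silenced cells, 260 and 354 in control EVs, and 318 and 261 in silenced EVs. It ranked between 76 and 82 among the 466 to 599 miRNAs with reads in a cell library, and between 94 and 117 among the 183 to 202 with reads in an EV library. Its level in reads per 1000000 spike-in reads was 589 ± 95.7 in control cells (SD, n = 2), 404 ± 53.1 in silenced cells, 11.5 ± 2.99 in control EVs and 8.53 ± 0.0806 in silenced EVs. Cell and EV libraries were thus far apart on this scale, while the neighbours within a compartment were close. As a share of the mouse miRNA reads the picture was different, with 730 and 883 CPM in control cells, 739 and 622 in silenced cells, 378 and 640 in control EVs, and 514 and 519 in silenced EVs. On this second scale 1 control EV library lay within the range of the cell libraries, and the other 3 EV libraries lay below it.

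miR-155-3p was close to the limit of detection. It had 11 and 0 reads in control cells, 7 and 26 in silenced cells, and 0 in each of the 4 EV libraries. The 3p strand made up 0.118% of the miR-155 reads in the first library of control cells (exact Clopper-Pearson 95% interval 0.0590 to 0.211). In the second it had 0 of 10334 reads, where a limit of 3 reads gives a share of up to 0.0290% (exact interval up to 0.0357%). In silenced cells it made up 0.108% (0.0435 to 0.223) and 0.329% (0.215 to 0.482). The conditions overlapped, since the lower shPCBP2 library lay below the higher shCTR library. In EVs, 0 of 260, 354, 318 and 261 reads allow shares of up to 1.15%, 0.847%, 0.943% and 1.15% at the same limit of 3 reads. The exact intervals there reach 1.41%, 1.04%, 1.15% and 1.40%. Had EVs held both arms in the proportion of their cells, 0.146 and 0.198 reads of the 3p strand would have been counted in control EVs, and 0.732 and 0.601 in silenced EVs. Presence of miR-155-3p in EVs, or a change of it with shPCBP2, was therefore not detectable at this depth. Intervals and limits cover counting error only.

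miR-146a-5p had 505 and 382 reads in control cells, 180 and 270 in silenced cells, 0 and 156 in control EVs, and 77 and 0 in silenced EVs. miR-146b-5p had 612 and 601 reads in control cells, 490 and 706 in silenced cells, 105 and 0 in control EVs, and 0 and 174 in silenced EVs. In cells both were present in each library with read counts more than 10 times below those of miR-155-5p, whereas each EV library held reads of only 1 of them. Their 3p arms were almost absent, since miR-146a-3p had 0 reads in each of the 8 libraries and miR-146b-3p had 6 reads in the second library of silenced cells and 0 elsewhere.

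**Figure D1:**
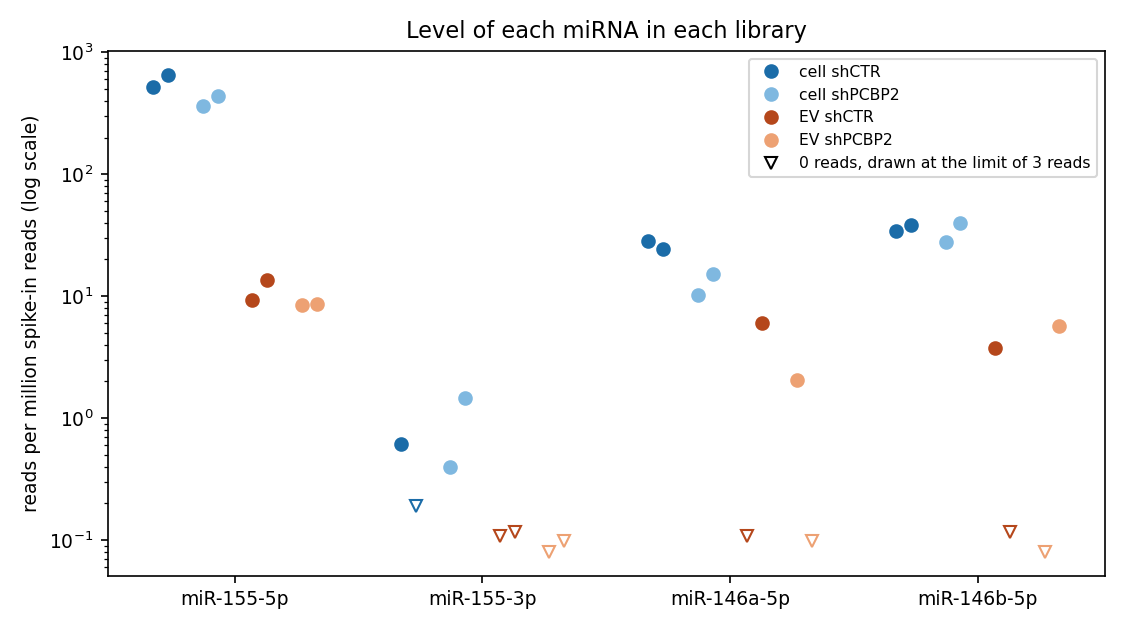
Reads per 1000000 spike-in reads of each miRNA (log scale) in each of the 8 libraries, where filled points are measured values and open triangles mark libraries with 0 reads at the limit of 3 reads. miR-155-5p is near 589 and 404 in cells and near 11.5 and 8.53 in EVs, miR-155-3p has no EV value, and miR-146a-5p and miR-146b-5p each have 2 EV values and 2 EV limits.

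The split of the miR-146 reads between its rows needs no scaling between libraries. miR-146b-5p made up 54.8% (51.8 to 57.7) and 61.1% (58.0 to 64.2) of them in control cells, and 73.1% (69.6 to 76.5) and 72.3% (69.4 to 75.1) in silenced cells. Both libraries of silenced cells lay above both of control cells, with means of 72.7% ± 0.564 and 58.0% ± 4.49 (SD, n = 2), but an exact two-sided permutation test of 2 against 2 libraries cannot give a p below 0.333. In EVs the share was 100%, 0%, 0% and 100% in the order of the reads above. At the share of the mouse reads found in cells, 25.0 and 20.1 reads of miR-146a-5p were to be counted in control EVs and 13.0 and 10.6 in silenced EVs, and 34.1, 27.5, 34.6 and 28.1 reads of miR-146b-5p. Observed values were either 0 or above all of these. Such gaps were not particular to miR-146. Of the 180 tested miRNAs, the miR-146 rows included, 33 had 0 reads in exactly 2 EV libraries. Of these, 8 had the pattern of miR-146a-5p and 5 that of miR-146b-5p, each count including that row itself. Low counts were also rare in EVs, where 6.35% to 13.7% of the miRNAs with reads had under 77 reads, the lowest EV count of a member above 0, against 43.1% to 58.4% in cells. As the mature forms differ at 2 positions near the 3′ end, a read can be assigned to the wrong one, and the rows were also summed. The sum was 1117 and 983 reads in control cells, 670 and 976 in silenced cells, 105 and 156 in control EVs, and 77 and 174 in silenced EVs.

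**Figure D2:**
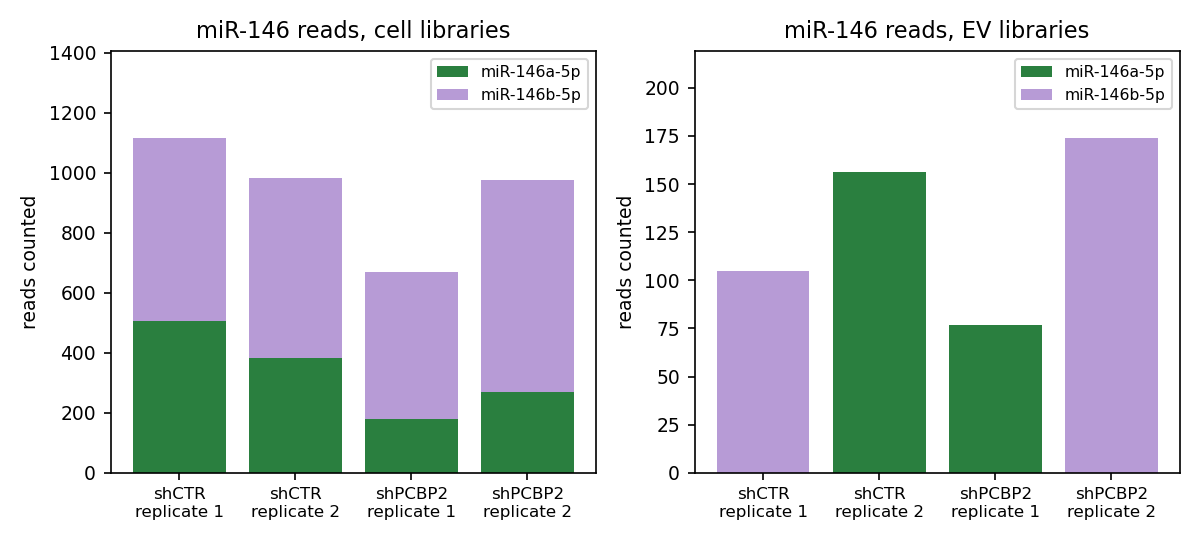
Reads counted for miR-146a-5p (green) and miR-146b-5p (purple) in the 4 cell libraries (left) and the 4 EV libraries (right), stacked, with a different vertical scale in each panel. Cell libraries hold both in each case, and the 4 EV libraries hold 105, 156, 77 and 174 reads of only 1 of them.

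The distribution between EVs and cells was tested with edgeR's quasi-likelihood test on spike-in scaled counts, with Benjamini-Hochberg adjustment over all 180 miRNAs. In shCTR, miR-155-5p was lower in EVs by a log2 difference of -5.68 (SE 0.47, 95% interval -6.82 to -4.54, adjusted p = 5.62e-05). In shPCBP2 the difference was -5.56 (SE 0.46, -6.70 to -4.43, adjusted p = 6.03e-05). It was lower in each of the 4 EV libraries than in any cell library, as were 78.3% of the tested miRNAs. Of all tested, 66.1% passed in shCTR and 67.8% in shPCBP2, and 59.4% and 60% passed as lower in EVs. The median over all tested miRNAs was -4.93 in shCTR and -4.90 in shPCBP2, so miR-155-5p lay 0.75 and 0.67 below it and was the 55th and 64th lowest of 180. With libraries scaled to the total mouse miRNA count the difference was -0.67 (adjusted p = 0.308) in shCTR and -0.40 (adjusted p = 0.574) in shPCBP2, and the split of all calls in shCTR went from 12 higher and 107 lower to 43 higher and 32 lower.

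For the miR-146 rows taken singly, the zeros left wide intervals. miR-146a-5p differed by -3.13 (SE 2.81, adjusted p = 0.339) in shCTR and by -3.62 (SE 2.88, adjusted p = 0.295) in shPCBP2, and miR-146b-5p by -4.26 (SE 3.04, adjusted p = 0.239) and -3.56 (SE 2.94, adjusted p = 0.311). None of these passed the edgeR test. The summed row did, at -3.68 (SE 0.85, -5.74 to -1.62, adjusted p = 0.00825) in shCTR and -3.58 (SE 0.84, -5.62 to -1.53, adjusted p = 0.00895) in shPCBP2 by the same edgeR test, beside 67.6% and 69.3% of all rows in those fits. It lay 1.27 and 1.32 above the median of all rows, on the other side from miR-155-5p, although the intervals of the sum and of miR-155-5p overlapped and the difference between them was not tested. As a share of the mouse miRNA reads, the sum was 87.7, 84.0, 76.6 and 77.2 CPM in the cell libraries and 153, 282, 124 and 346 CPM in the EV libraries. Each EV library was above each cell library on this scale, as for 30.6% of the tested miRNAs, and the direction was opposite to that on the spike-in scale. The edgeR fit of the sum scaled to the total mouse miRNA count, chosen after the values were seen, gave 1.34 (-0.85 to 3.53, adjusted p = 0.292) in shCTR and 1.61 (-0.59 to 3.82, adjusted p = 0.197) in shPCBP2, which did not pass.

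**Figure D3:**
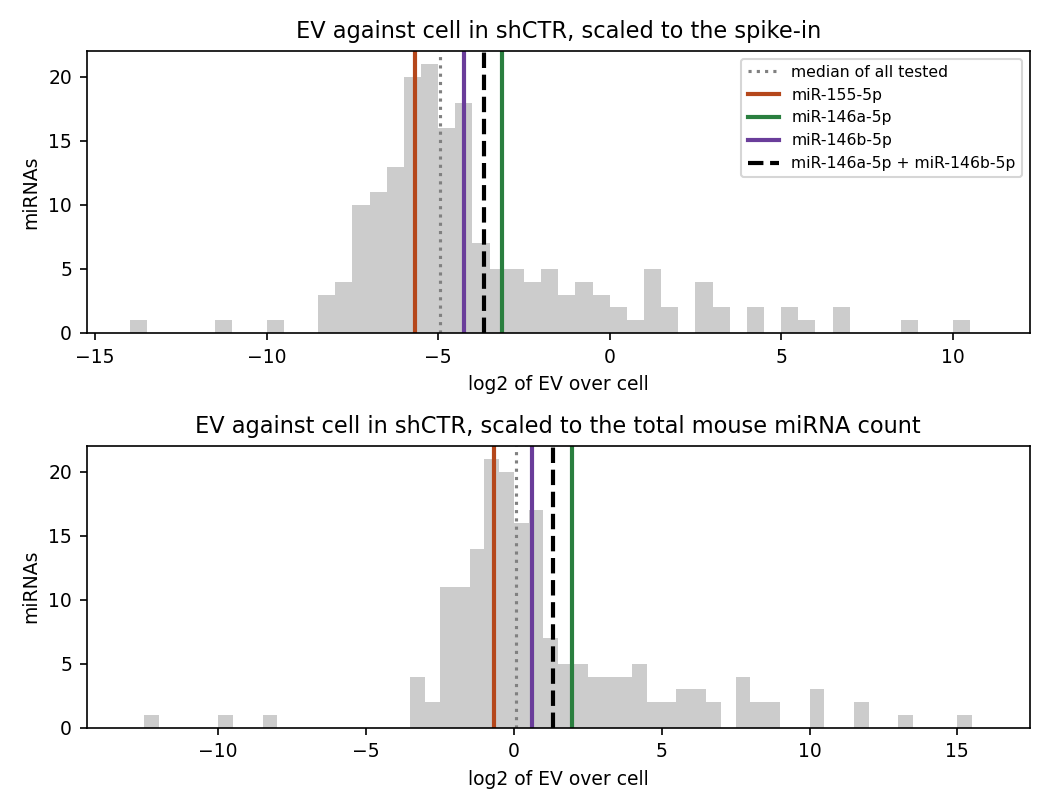
Histogram of the log2 difference of EVs over cells in shCTR for 180 miRNAs, scaled to the spike-in (top) and to the total mouse miRNA count (bottom), with lines at the median (dotted), at miR-155-5p, miR-146a-5p and miR-146b-5p (solid) and at the summed miR-146 row (dashed). On the spike-in scale miR-155-5p is at -5.68 and the sum at -3.68, either side of the median of -4.93, and the other scaling moves all lines to the right.

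The central comparison of the design asks whether the ratio of EV to cell levels differs between the shRNAs, measured as the interaction of compartment and shRNA. For miR-155-5p it was 0.12 on the log2 scale (SE 0.54, 95% interval -1.20 to 1.43, adjusted p = 0.992 by edgeR). The interval leaves room for changes of more than 2-fold in either direction, and the sign was negative with TMM scaling. miR-146a-5p gave -0.49 (SE 3.64) and miR-146b-5p 0.70 (SE 3.76), both with an adjusted p of 0.992 in the same edgeR fit, and intervals from -9.37 to 8.40 and from -8.47 to 9.87 that hold almost no information. Their sum gave 0.10 (SE 1.08, -2.53 to 2.73). So 0 of 3 tested members passed, beside 2.22% of all tested miRNAs, with 0 of 3 at an unadjusted p under 0.05, beside 9.44% of all, and 0 of 3 by DESeq2, which called 7.78% of all. Among all 180 the median was -0.08, and the members lay at the 60.6th, 24.4th and 75th percentiles for miR-155-5p, miR-146a-5p and miR-146b-5p.

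Within EVs, both shPCBP2 libraries lay below both shCTR libraries for miR-155-5p per spike-in read, at 8.47 and 8.58 against 9.36 and 13.6, as did 43.3% of the 194 miRNAs tested in EVs. The log2 change was -0.43 (SE 0.90, 95% interval -2.64 to 1.78, edgeR adjusted p = 0.970), near the median of -0.54 over all, and it was 0.02 with the total mouse miRNA count as the scale. miR-146a-5p changed by -1.54 (SE 3.90), miR-146b-5p by 0.60 (SE 3.69) and their sum by -0.33 (SE 1.60). None passed the edgeR test, beside 0.515% of all tested, 0 of 3 had an unadjusted p under 0.05 beside 14.9% of all, and DESeq2 called 0 of 3 beside 23.2% of all.

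Within cells the depth was greater and all 4 members could be tested, among 460 miRNAs. miR-155-5p was lower in both shPCBP2 libraries per spike-in read, at 366 and 441 against 522 and 657, with a log2 change of -0.54 (SE 0.28, -1.12 to 0.03, edgeR adjusted p = 0.261). This differed by only -0.06 from the median of -0.49 over all 460 miRNAs, and with TMM scaling the change was -0.03. miR-146a-5p was also lower without overlap, with 39.7 and 32.7 CPM in shCTR against 20.6 and 21.4 CPM in shPCBP2, and its log2 change on the spike-in scale was -1.05 (SE 0.42, -1.92 to -0.19). Its unadjusted p was 0.0191 and its adjusted p 0.162 in edgeR, so it did not pass, and the change remained negative in each of the 13 alternatives, from -1.37 to -0.56. The share of miRNAs that were lower without overlap was 49.1% per spike-in read and 38.3% per mouse miRNA read. miR-146b-5p moved little, by -0.11 (SE 0.34, -0.81 to 0.60, edgeR adjusted p = 0.944), and by 0.38 with TMM scaling. Its CPM values of 48.1 and 51.4 in shCTR and 56.0 and 55.9 in shPCBP2 were higher without overlap, as were those of 13.9% of all miRNAs. The summed miR-146 row changed by -0.43 (SE 0.32, edgeR adjusted p = 0.480). miR-155-3p, with its few reads, gave 1.56 (SE 2.39, -3.39 to 6.50, edgeR adjusted p = 0.791). Thus 0 of 4 members passed in cells, beside 4.13% of all tested miRNAs. miR-146a-5p alone had an unadjusted p under 0.05, 1 of 4 beside 22.2% of all. DESeq2 called 0 of the 3 members to which it gave an adjusted p, beside 9.35% of all, and gave none to miR-155-3p.

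**Figure D4:**
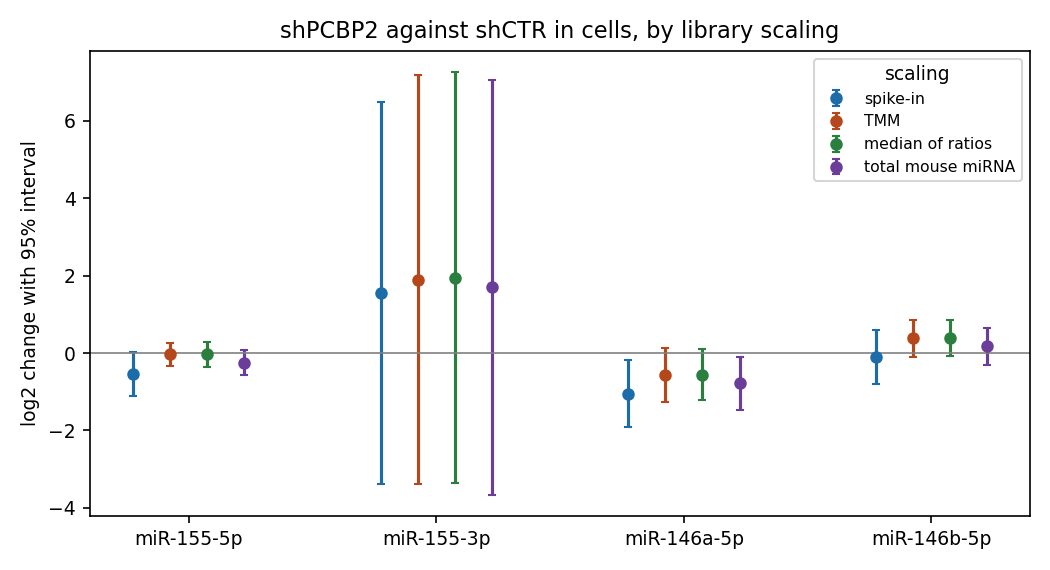
Log2 change of shPCBP2 against shCTR in cells for each miRNA with its 95% interval, under 4 ways to scale the libraries. miR-146a-5p is below 0 under all 4, miR-155-5p moves from -0.54 with the spike-in to -0.03 with TMM factors, and the sign of miR-146b-5p turns with the scaling.

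A list of 14 other miRNAs that act on NF-kB signalling or are induced through it was set beside the members. In cells, 12 of them could be tested and 0 passed, with a median change of -0.39 beside -0.49 over all miRNAs. For the EV/cell ratio, 9 could be tested and 0 passed, with a median of -0.12 beside -0.08. In EVs against cells, 8 of 9 passed as lower and 1 as higher in both shCTR and shPCBP2. Of all tested miRNAs, 59.4% in shCTR and 60% in shPCBP2 passed as lower. The medians of the list were -4.68 and -5.03 beside -4.93 and -4.90 over all. The one that was higher is miR-223-3p, a myeloid miRNA also held in the leukocyte list, with 3, 0, 0 and 6 reads in cell libraries and 2673 to 3883 reads in EV libraries. The 8 lower ones were miR-125b-5p, miR-15a-5p, miR-16-5p, miR-181b-5p, miR-21a-5p, miR-224-5p, miR-301a-3p and miR-31-5p. miR-21a-5p, which is induced through STAT3, had the largest difference of them, at -7.41 (SE 0.24) in shCTR. With libraries scaled to the total mouse miRNA count, the shCTR difference was 0.31 for miR-125b-5p, 0.69 for miR-15a-5p, 0.57 for miR-16-5p and 0.56 for miR-31-5p. It stayed negative for miR-181b-5p, miR-21a-5p, miR-224-5p and miR-301a-3p, at -1.83, -2.42, -0.72 and -1.86.

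Among the 9 tested within EVs, miR-31-5p alone passed. It had 63406 and 58092 reads in control EVs and 39491 and 33483 in silenced EVs. Per spike-in read it was lower without overlap in silenced EVs, as were 43.3% of the 194 miRNAs tested in EVs. Its log2 change was -1.07 (SE 0.08, edgeR adjusted p = 0.00335), where 0.515% of all tested passed. It passed in 8 of 13 alternatives and was lost with each of the other scalings, where the change was -0.64 to -0.60, and without either EV shPCBP2 library. In cells miR-31-5p, miR-16-5p and miR-21a-5p were the most abundant of the list. miR-31-5p had 886411 and 745224 reads in control cells and 509092 and 736135 in silenced cells, far above any of the 4 members, and its change there did not pass.

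The miRNAs whose levels over the 8 libraries were most like those of miR-155-5p were miR-23b-3p, miR-103-3p and let-7f-5p. The root mean square difference of their centred log2 levels from miR-155-5p was 0.206, 0.235 and 0.240, against a median of 1.46 over 179 miRNAs. These are abundant miRNAs, with 129245 to 691726 reads in cell libraries, and they too had far fewer reads in EV libraries, 5451 to 21854. miR-146a-5p came 105th at 2.30 and miR-146b-5p 132nd at 2.68. Each of these rows had 0 reads in 2 EV libraries, entered as 1 read, and these zeros weigh on the distances. The summed miR-146 row was not ranked.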

How the data were processed

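Small RNA of 3A cells and their EVs was measured in 8 libraries. The authors trimmed adapters, kept forward reads, mapped these to the hairpins of miRBase and to the spike-in by means of mirPRo, which runs NovoAlign, and deposited 1 table of raw counts with a row for each of 1980 mature miRNAs, of which 2 belong to the spike-in. The deposited counts are not normalized, and the largest are printed to 6 significant digits. No molecular identifiers were stated, so counting intervals do not cover amplification. Samples were grouped by their labels. For 3 of the 4 shPCBP2 libraries the replicate number in the title differs from that in the description, and those of the titles were taken. The members, lists and tests were chosen with earlier results of these data known.

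edgeR 4.0.16 in R 4.3.3 was run with each library scaled by its spike-in reads, and p-values were adjusted by Benjamini-Hochberg with a threshold of 0.05. EV against cell and the change of the ratio came from 1 fit of all 8 libraries over rows with at least 1 read in at least 2 cell and 2 EV libraries. Changes within EVs or cells came from the 4 libraries concerned, over rows with at least 10 counts in 2 of them. SEs were derived from the F statistic and are approximate. The study used DESeq2, which was an alternative here (1.42.0). Named miRNAs are the 4 members, the 3p arms of miR-146, miRNAs of the NF-kB list that passed in a comparison or were the 3 highest in cell shCTR, and the 3 nearest to miR-155-5p. Marker miRNAs belong to lists of general knowledge. Likeness used a pseudocount of 1 read. The fits within cells and for the change of the ratio, not that within EVs, were run on simulated data with known changes. For the ratio the simulated spread was below the fitted one. Levels, shares and intervals were computed in Python 3.11.15 (scipy 1.17.1, pandas 2.3.3). Sequences came from the RefSeq table and annotations from GENCODE on GRCm38. Alternatives were other scalings, filters, DESeq2, replicate blocks, other sets of libraries, summed miR-146 rows and each library left out.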

Additional observations from a re-analysis of the deposited data

Results flagged for a closer look

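miR-146b-3p, an arm that no comparison tested, had 6 reads in the second cell shPCBP2 library, above the 3 reads that a count of 0 allows, and 0 reads in both cell shCTR libraries. The first cell shPCBP2 library also had 0 reads. No condition had enough libraries for a test of single libraries.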

How the results depend on the processing

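No alternative made a member pass for the EV/cell ratio, within EVs or within cells. For EVs against cells, the number of members that passed went from 1 to 0 with median-of-ratios factors and with the total mouse miRNA count in shCTR and shPCBP2, also with the miR-146 rows summed (added after seeing the data), to 0 with TMM factors in shCTR, and to 2 with the rows summed and the spike-in kept. miR-155-5p stayed lower in EVs in each alternative, at -1.11 and -1.24 with TMM (adjusted p = 0.0747 in shCTR and 0.0490 in shPCBP2), and -5.97 to -5.44 and -5.69 to -5.42 with a library left out, where it always passed. Log2 EV over cell of mean CPM was -0.66 and -0.40 for miR-155-5p (shCTR, shPCBP2), 1.96 and 1.57 for miR-146a-5p, and 0.62 and 1.63 for miR-146b-5p. In the fits with TMM, median-of-ratios and total count these signs also turned, to 1.50, 1.78 and 1.96 (shCTR) and 0.60, 1.05 and 1.57 (shPCBP2) for miR-146a-5p, and to 0.20, 0.37 and 0.62 and 0.91, 1.31 and 1.63 for miR-146b-5p.

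The sign of the miR-155-5p ratio turned with TMM (-0.13), and ran from -0.13 to 0.41 with a library left out. The miR-146a-5p ratio ran from -1.48 to 0.51 and the miR-146b-5p ratio from -0.30 to 1.70. Within EVs miR-155-5p was 0.016 with median-of-ratios and 0.022 with total count, and miR-146b-5p ran from -0.40 to 1.59 with a library left out. In cells miR-146b-5p was 0.38 (TMM), 0.39 (median-of-ratios) and 0.17 (total count), and -0.39 to 0.13 with a library left out. These changes of sign were all within values that did not pass, and the cause was not tested.

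Whether the replicate numbers pair the libraries was not settled. Correlations of deviations between conditions ran from -0.41, between control and silenced cells, to 0.04. A replicate block left 1 member passing in EVs against cells and 0 elsewhere. It moved all calls from 4 to 1 for the ratio, from 1 to 9 in EVs and from 19 to 29 in cells. A block for each shRNA and title number, which may not be a culture, turned the miR-146a-5p ratio to 0.21. The crossed numbers, tried in cells after seeing the data, gave 20 calls.

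Over all alternatives the calls among all miRNAs ran from 0 to 16 for the ratio, 75 to 294 and 86 to 294 for EVs against cells, 0 to 45 in EVs (45 with DESeq2) and 0 to 47 in cells. The cell calls split into 13 higher and 16 lower with TMM, against 0 and 19. Under the filter of 10 counts in all libraries the miR-146 rows and miR-155-3p gave no value in the fits with EVs. Depth limits the EV results, since miR-155-3p was expected at under 1 read.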
